A study of Homo sapiens with 4 samples.

Results

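The genes described here control the entry of cells from the first gap phase (G1) of the cell cycle into DNA synthesis. They are 6 inhibitors of cyclin-dependent kinases (CDKN1A, CDKN1B, CDKN1C, CDKN2A, CDKN2B and CDKN2C), the D-type cyclins CCND1 and CCND3, and the kinases CDK4 and CDK6 that the D-type cyclins activate. The set was chosen by symbol for its role, CDKN1A being known as a target of ARID1A. Probe sets paired with exactly 1 gene of the set were taken, which gave 27 of the 49293 probe sets tested, for 9 of the 10 genes. CDKN2C was not analysed here.

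The study measured total RNA of OE33, a human tumour cell line derived from oesophageal adenocarcinoma, on 4 Affymetrix Human PrimeView arrays. Cells of 2 arrays had received a pool of siRNAs against ARID1A (ON-TARGETplus SMARTpool ARID1A), and cells of the other 2 a pool of non-targeting siRNAs (ON-TARGETplus Non-targeting Pool, called mock here). All had been given lipofectamine with siRNA at 50 nM, 24 hours after plating and in medium with 15% serum, and were harvested 48 hours after transfection. ARID1A is a subunit of the SWI/SNF chromatin remodelling complex, and the series set out to find genes downstream of its loss. One cell line, 1 siRNA pool and 1 time point were measured, with 2 biological replicates per condition. The labels do not say how the replicates were separated. The p-values therefore rest on the spread between these arrays alone, pooled in part over all probe sets tested.

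D-type cyclins bind CDK4 and CDK6 and carry mitogen signals to the retinoblastoma protein RB1, whose phosphorylation frees E2F transcription factors to turn on the genes of DNA synthesis. The INK4 proteins, encoded by CDKN2A, CDKN2B and CDKN2C, block CDK4 and CDK6 directly. The CIP/KIP proteins p21 (CDKN1A), p27 (CDKN1B) and p57 (CDKN1C) bind a wider range of cyclin-kinase complexes and mainly stop cyclin E with CDK2. In epithelial tumours this brake is often lost, by silencing or deletion of inhibitor genes or by excess of cyclin D1 or the kinases.

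Promoter sequences are shown for the inhibitor gene named in the rule as an ARID1A target and for both kinases, since CDKN1A had changes near 0 and both kinases had negative ones. Each line gives the 100 bases before the transcription start in the RefSeq promoter table (GRCh38.p14), 5′ to 3′ on the strand of the gene. Capitals mark the GC box GGGCGG or its reverse complement CCGCCC, the core that SP1-family factors recognise, with overlapping matches counted separately.
CDKN1A, chr6:36678614-36678713, plus strand: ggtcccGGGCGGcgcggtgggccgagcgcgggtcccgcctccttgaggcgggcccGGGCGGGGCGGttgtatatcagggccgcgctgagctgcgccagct
CDK4, chr12:57752311-57752410, minus strand: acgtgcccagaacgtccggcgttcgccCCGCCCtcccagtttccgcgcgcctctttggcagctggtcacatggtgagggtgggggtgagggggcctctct
CDK6, chr7:92836574-92836673, minus strand: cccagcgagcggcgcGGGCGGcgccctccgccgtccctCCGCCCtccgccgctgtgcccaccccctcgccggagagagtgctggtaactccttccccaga
CDKN1A had 3 matches, CDK6 had 2 at this start and CDK4 had 1. A match was present in the same window of 31.3% of the 35116 promoters in the table, and 13.1% held at least 2. For CDK6 the table lists another start, whose window held 0 matches. Of the 10 genes, 8 had a promoter in the table, and CDKN1C and CCND1 had none. A match was present in 10 of the 14 windows of those 8 genes. These matches describe the letters only, and binding was not measured here.

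The knockdown was checked first. At its brightest probe set (11719858_a_at) ARID1A stood at log2 levels of 7.53 and 7.53 after knockdown against 9.28 and 9.33 in mock, a change of -1.78 (SE 0.0718, limma adjusted p = 0.0218). Of its 6 probe sets 4 passed the test, all lower in knockdown. The other 2 did not pass. The log2 change was -0.36 at 11742019_a_at, with an adjusted p of 0.213. It was 0.11 at 11746832_a_at, with an adjusted p of 0.678 and overlapping groups. Markers of epithelial cells were bright, with a median log2 level of 13.3 over 6 genes, KRT8, KRT18, KRT19 and EPCAM among them. The medians were 4.42 over 6 fibroblast markers, 5.12 over 5 leukocyte markers and 5.85 over 4 endothelial markers, against 6.68 over all genes. With limma p-values under 0.05 before adjustment, 1 of the 6 fibroblast markers, 1 of the 5 leukocyte markers and 3 of the 4 endothelial markers were lower in knockdown cells and 0 were higher, none past the test. Over all genes, each at its brightest probe set, 7.25% were lower and 9.76% higher at that p. Over all probe sets 156 of 49293 (0.316%) passed the test, an adjusted p under 0.05 in limma, and 0 of the 27 member probe sets did so. Of the 156, 74 were higher and 82 lower. With each array centred on its median the split was 403 higher to 268 lower.

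At an unadjusted p under 0.05, 3 of the 27 member probe sets were higher in knockdown cells (11.1%, against 9.1% of all probe sets) and 3 were lower (11.1%, against 7.07%). The 3 higher were all those of CDKN1C and the 3 lower were 3 of the 4 of CDK6. Both shares lay near the background of the array, so the count of members alone shows little. The median change over the 27 was -0.06, against -0.00 over all probe sets. Both knockdown arrays lay above both mock arrays at 5 member probe sets (18.5%, against 24.2% of all) and below them at 11 (40.7%, against 22.5%), of which 6 were probe sets of CDK4 and CDK6. Probe sets of a gene measure the same RNA and may share probes, so they are not separate replicates.

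**Figure D1:**
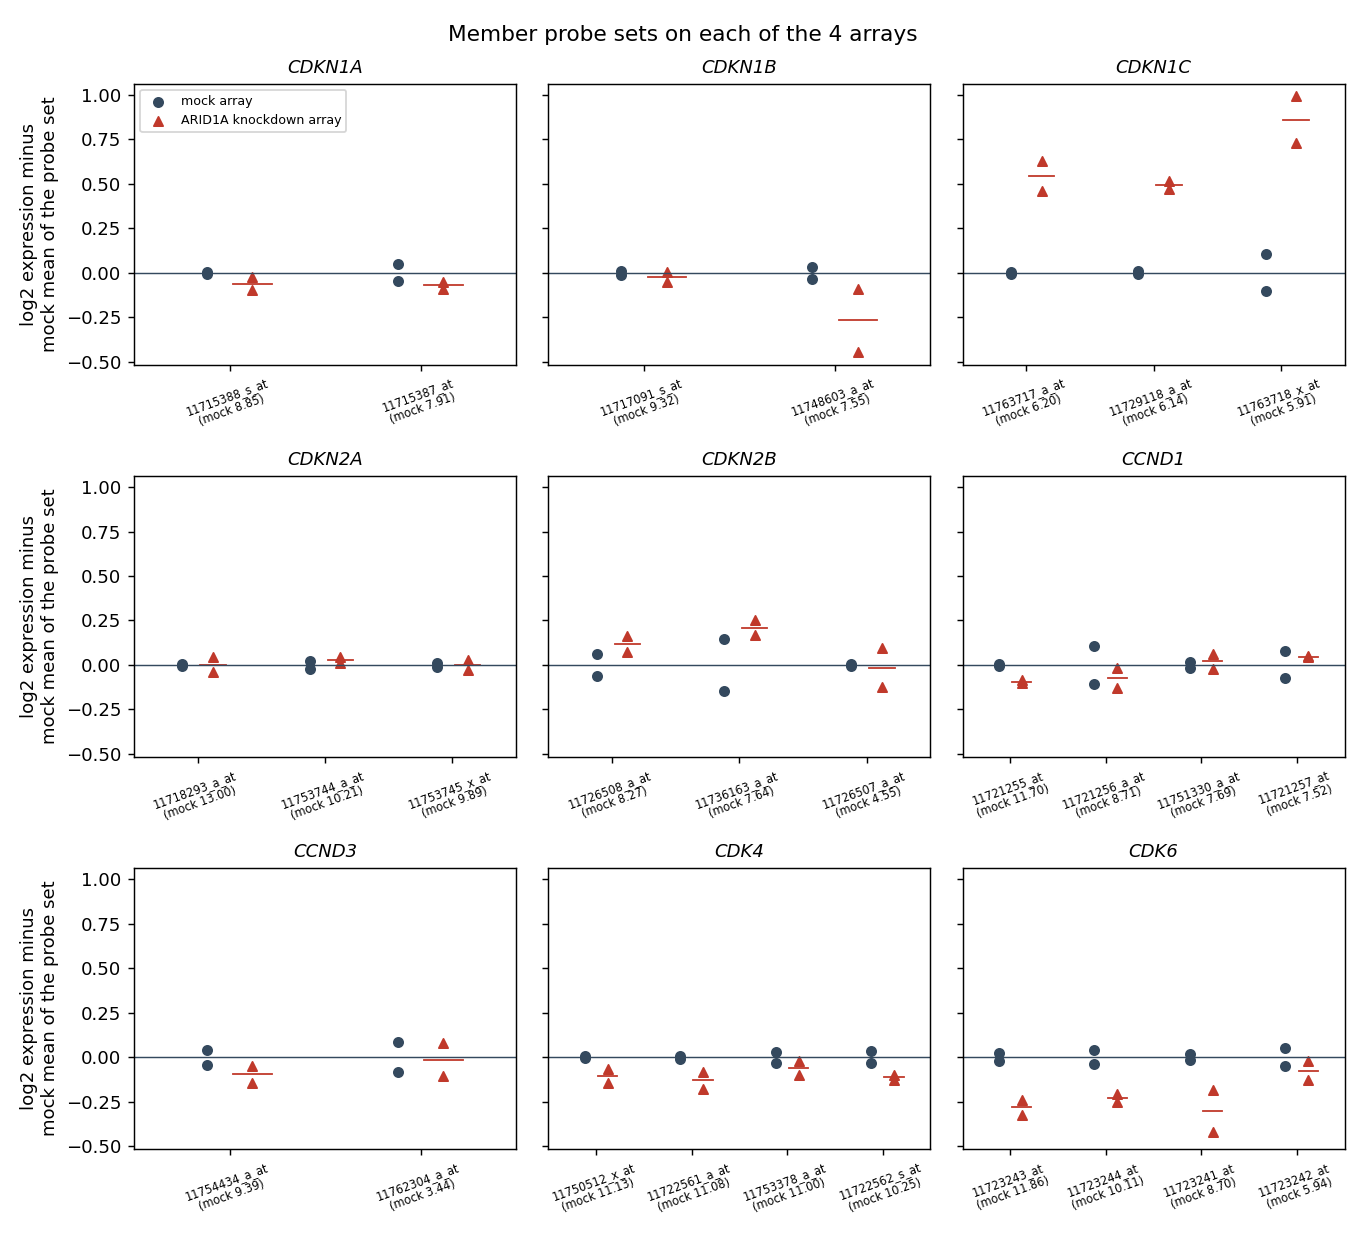
Each panel shows 1 gene, with its probe sets on the x axis and the mock mean of each on the log2 scale in brackets; the y axis is the log2 expression of each array minus that mock mean. Circles are the 2 mock arrays, triangles the 2 ARID1A knockdown arrays and the short line their mean, and the triangles of CDKN1C stand clear above the circles while those of 3 CDK6 probe sets stand below.

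Among the inhibitors of the CIP/KIP family, CDKN1C had the largest difference. CDKN1C encodes p57, a growth-restraining inhibitor expressed from the maternal copy of an imprinted region. At its brightest probe set, 11763717_a_at, log2 levels were 6.82 and 6.66 after knockdown against 6.19 and 6.20 in mock. At 11729118_a_at they were 6.61 and 6.66 against 6.14 and 6.15. At 11763718_x_at they were 6.64 and 6.90 against 6.01 and 5.81. Both knockdown arrays thus exceeded both mock arrays at all 3 probe sets, and the groups did not overlap. In RNA of a whole culture, a larger share of cells expressing a gene and more of its RNA per cell cannot be told apart.

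The log2 change of CDKN1C was 0.54 (95% confidence interval 0.33 to 0.76) at 11763717_a_at, a ratio of 1.46. It was 0.49 (0.32 to 0.67) at 11729118_a_at and 0.86 (0.56 to 1.16) at 11763718_x_at, ratios of 1.41 and 1.82. The limma adjusted p-values were 0.0793, 0.0716 and 0.0672, so that no probe set of CDKN1C passed the test, although each interval excluded 0. The call depended on the setting. With the arrays centred on their medians all 3 passed (limma adjusted p = 0.0357, 0.0400 and 0.0223), in a setting that called 671 probe sets in all. With the probe sets of every gene averaged and the genes refitted, the change was 0.63 (adjusted p = 0.0119). After quantile normalization none of the 3 passed (adjusted p = 0.0745, 0.0621 and 0.0637). Without probe sets ending in _s_at or _x_at, 11763717_a_at and 11729118_a_at did not pass either (adjusted p = 0.0926 and 0.0869). Over the alternatives the adjusted p of 11763717_a_at ran from 0.0138 to 0.521, and that of 11729118_a_at from 0.0167 to 0.521. For 11763718_x_at, whose suffix marks probes that can match other sequences, it ran from 0.00369 to 0.521. The change itself stayed between 0.46 and 0.63, between 0.47 and 0.52 and between 0.73 and 0.99 at these probe sets.

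The level of CDKN1C was modest. Its probe sets had means of 6.34 to 6.47, at percentiles 55.7 to 57.4 of the array, where the background part of the signal can compress a ratio. The 3′ to 5′ difference of the beta-actin control, a sign of RNA integrity, was 1.21 and 1.10 after knockdown against 1.04 and 0.995 in mock. The same difference of the GAPDH control was 0.201 and 0.215 after knockdown against 0.199 and 0.211 in mock, and there the groups overlapped. The beta-actin difference was larger on both knockdown arrays than on both mock arrays. Its part in the values of CDKN1C and of the other genes below was not tested.

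CDKN1A, the p21 gene, had changes near 0. Its log2 levels at 11715388_s_at were 8.82 and 8.75 after knockdown against 8.85 and 8.84 in mock. At 11715387_at they were 7.85 and 7.82 against 7.86 and 7.95. The knockdown arrays were the lower ones at both probe sets, by small amounts. The changes were -0.06 (-0.24 to 0.12, adjusted p = 0.739) and -0.07 (-0.26 to 0.12, adjusted p = 0.698) in limma. As ratios of knockdown to mock these intervals run from 0.834 to 1.09. They rest on 2 arrays per condition, and the suffix of 11715388_s_at marks probes that can match other sequences.

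CDKN1B encodes p27, whose amount is set largely by protein breakdown. Its bright probe set, 11717091_s_at, stood at 9.27 and 9.33 in knockdown and 9.33 and 9.31 in mock arrays, and the groups overlapped. The change there was -0.02 (-0.20 to 0.16, adjusted p = 0.917). The second, 11748603_a_at, stood at 7.11 and 7.46 against 7.58 and 7.52. Its change of -0.27 (-0.59 to 0.05, adjusted p = 0.380) rested on knockdown replicate 1, without which it was -0.09. The 2 probe sets therefore give no common value for CDKN1B.

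Of the INK4 family, CDKN2A was expressed at a high level and hardly differed. This gene encodes p16 and, in another reading frame, ARF, and the files do not say which transcript each probe set reports. At 11718293_a_at its log2 levels were 12.95 and 13.04 in knockdown and 13.00 and 12.99 in mock arrays. By its mean that signal ranked at percentile 99.3. The other 2 probe sets stood at 10.26 and 10.22 against 10.19 and 10.24, and at 9.86 and 9.92 against 9.90 and 9.88. The groups overlapped at all 3 probe sets of CDKN2A, with changes of 0.00, 0.03 and -0.00 and intervals from -0.18 to 0.21.

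CDKN2B encodes p15, an INK4 protein induced by TGF-beta in epithelia. At 11726508_a_at it stood at 8.43 and 8.34 in knockdown and 8.34 and 8.21 in mock arrays, a change of 0.12 (-0.09 to 0.33, adjusted p = 0.551). At 11736163_a_at it stood at 7.81 and 7.89 against 7.78 and 7.49, a change of 0.21 (-0.08 to 0.49, adjusted p = 0.432). The groups did not overlap at either of these, though neither passed. The latter difference was 0.06 without mock replicate 2. The remaining, dim probe set of CDKN2B, 11726507_a_at, had a mean of 4.54 and a change of -0.01.

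The D-type cyclins showed no difference past the test. CCND1, the cyclin D1 gene and a target of mitogen signals, stood at 11.61 and 11.60 in knockdown and 11.70 and 11.70 in mock arrays at its brightest probe set, 11721255_at. Both knockdown values were lower, with a change of -0.09 (-0.27 to 0.08, adjusted p = 0.565). At the other 3 probe sets of CCND1 the groups overlapped, and the changes were -0.08, 0.02 and 0.05. CCND3, the gene of cyclin D3, stood at 9.34 and 9.24 against 9.35 and 9.43 at 11754434_a_at, a change of -0.10 (-0.30 to 0.10, adjusted p = 0.606). Its other probe set, 11762304_a_at, had a mean of 3.43, near the dim end of the array. Over all 6 cyclin probe sets the confidence intervals ran from -0.33 to 0.25.

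Both kinases had negative changes at all of their probe sets, 8 of 8, and at 3 of the 4 of CDK6 the confidence interval excluded 0. At 11723243_at, its brightest probe set, CDK6 stood at 11.54 and 11.62 in knockdown and 11.84 and 11.88 in mock arrays. At 11723244_at the levels were 9.91 and 9.86 against 10.07 and 10.15, and at 11723241_at they were 8.51 and 8.28 against 8.68 and 8.71. The groups were separate at these 3 probe sets, with the knockdown arrays lower. At the fourth, 11723242_at, they overlapped, at 5.91 and 5.81 against 5.99 and 5.89.

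The log2 change of CDK6 was -0.28 (-0.47 to -0.10) at 11723243_at, which leaves 0.822 of the mock level. It was -0.23 (-0.41 to -0.04) at 11723244_at, -0.30 (-0.55 to -0.06) at 11723241_at and -0.08 (-0.28 to 0.13) at 11723242_at. The limma adjusted p-values were 0.177, 0.237, 0.235 and 0.699, and none passed. Single arrays bore on 11723241_at, whose change was -0.19 without knockdown replicate 2 and -0.42 without knockdown replicate 1. With a prior variance that follows the signal level, 11723243_at and 11723244_at passed (adjusted p = 0.00385 and 0.0318), in a setting that called 3209 probe sets in all. Over the alternatives the adjusted p of these 2 ran up to 0.547 and 0.583. All 4 probe sets of CDK6 end in _at alone, so none is marked as sharing probes with other sequences.

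CDK4, the partner kinase of CDK6, differed less. At 11750512_x_at it stood at 10.99 and 11.06 in knockdown and 11.12 and 11.14 in mock arrays, and at 11722561_a_at at 10.90 and 11.00 against 11.07 and 11.09. At 11722562_s_at it stood at 10.15 and 10.12 against 10.28 and 10.21, while at 11753378_a_at the groups overlapped. The changes of CDK4 lay between -0.13 and -0.06, with adjusted p-values of 0.458 to 0.739, and every interval included 0. Whether CDK6 and CDK4 differ from each other in their change was not tested.

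**Figure D2:**
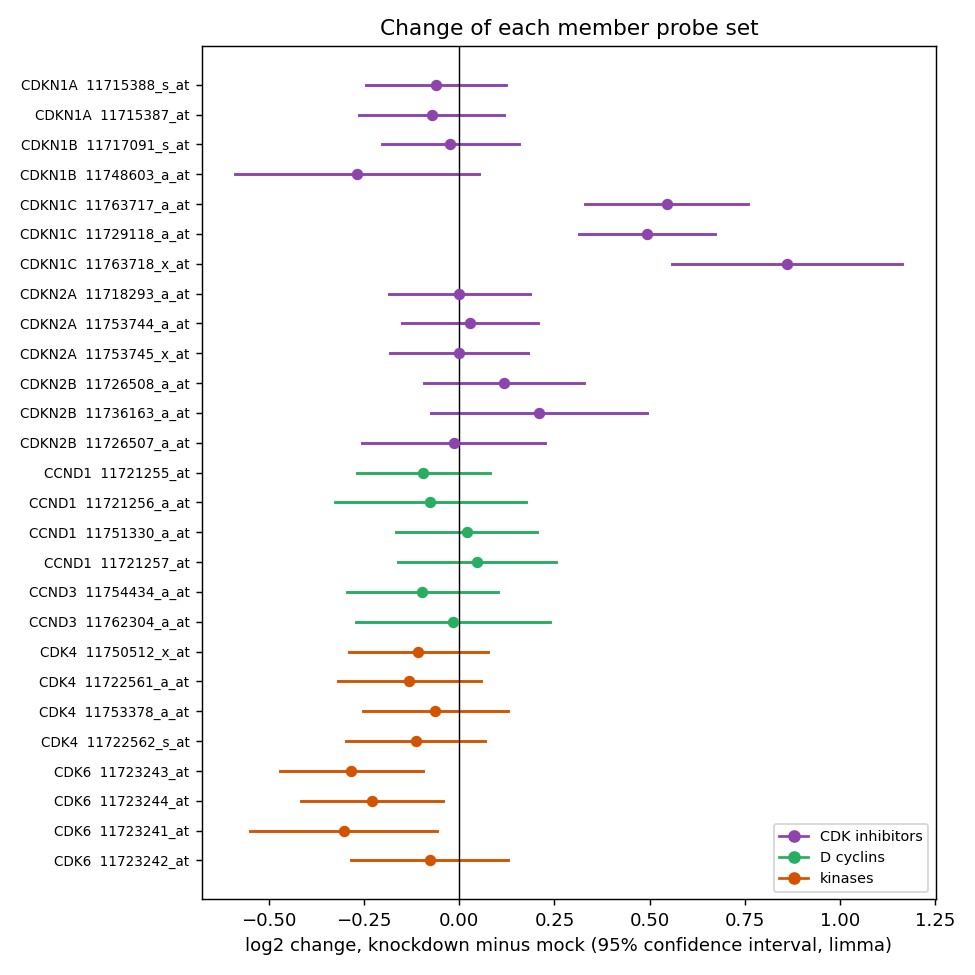
Points are the log2 change of each of the 27 member probe sets, knockdown minus mock, and bars are the 95% confidence interval from limma over 2 arrays per condition. The bars of CDKN1C lie wholly above 0 and those of 3 CDK6 probe sets wholly below it, and all others cross 0.

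The other genes of the pathway were read at the brightest probe set of each gene, where 73 of 18132 genes (0.403%) passed the test. Of 31 partner genes of G1 control measured, 0 passed, 6 had an unadjusted limma p under 0.05 and were higher, 4 likewise lower, and the median change was 0.02. Over all genes 9.76% were higher and 7.25% lower at that p, and the median was -0.00. E2F4, a repressive E2F that acts with the pocket proteins in resting cells, stood at 9.14 and 9.02 in knockdown and 9.67 and 9.65 in mock arrays, a change of -0.58 (adjusted p = 0.0633). Its second probe set had a change of -0.62 (adjusted p = 0.119). TFDP2, a dimer partner of E2F proteins, stood at 8.60 and 8.61 against 8.12 and 8.02, a change of 0.54 (adjusted p = 0.0673), and its second probe set had one of 0.48.

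E2F7, an atypical repressive E2F, had a change of -0.51 (adjusted p = 0.0759), while its other probe set had one of 0.06. SKP2, which marks p27 for breakdown, had a change of 0.34 (adjusted p = 0.122) and, at a dim second probe set, -0.12. CDK2, the kinase held by the CIP/KIP inhibitors, had a change of 0.18 (adjusted p = 0.303), and all 3 of its probe sets were positive. Its cyclins CCNE1 and CCNE2 had changes of -0.10 and -0.09. RB1 had one of 0.02, and CDKN2D, the INK4 gene not among the members, one of 0.13. CCND2, the D-type cyclin gene outside the set, had a mean of 4.65 and a change of -0.04.

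The genes that E2F turns on for DNA synthesis did not move one way. Of 17 measured, 0 passed, and the median was -0.03. At an unadjusted p under 0.05, 1 (5.88%, against 9.76% of all genes) was higher and 2 (11.8%, against 7.25%) were lower. MCM3, a subunit of the replicative helicase, had a change of -0.31 (adjusted p = 0.146), and all 4 of its probe sets were negative. TYMS, thymidylate synthase, had one of 0.24 (0.219). The helicase genes MCM5 and MCM4 had changes of -0.27 and -0.21, whereas those of MCM6, MCM7 and MCM2 were 0.19, 0.06 and -0.03. Among 10 proliferation markers 0 passed and 2 (20%, against 7.25% of all genes) were lower at that p. The mitotic kinase gene PLK1 had a change of -0.30 (adjusted p = 0.146) and, at its other probe sets, -0.39 and -0.58, CCNB1 had one of -0.19, TOP2A of 0.16 and AURKA of 0.12, while MKI67 had one of -0.02.

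**Figure D3:**
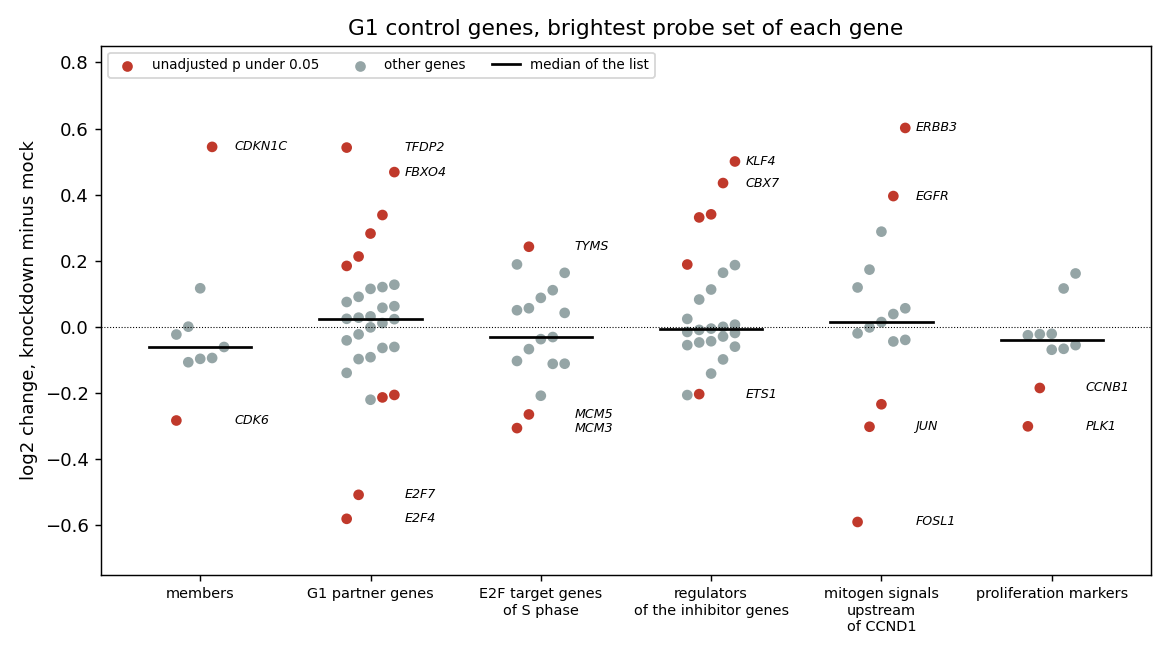
Each point is a gene at its brightest probe set, placed by its log2 change (knockdown minus mock, y axis) within 6 gene groups (x axis). Red points have an unadjusted p under 0.05 in limma and the bar is the median of the group; the medians lie between -0.06 and 0.02, with CDKN1C and CDK6 the red members.

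Genes upstream of the inhibitors were read in the same way. Of 25 regulators of inhibitor genes 0 passed, 5 (20%) were higher and 1 (4%) was lower at the unadjusted threshold, with a median of -0.01. The shares over all genes were 9.76% higher and 7.25% lower. KLF4, a zinc-finger factor known to induce CDKN1A, had a change of 0.50 (adjusted p = 0.0753) and, at its second probe set, 0.62 (0.0639). The Polycomb gene CBX7, known to repress the CDKN2A locus, had changes of 0.44 and, at its other probe set, -0.12. EGR1 had one of 0.34 (adjusted p = 0.152), with all 6 of its probe sets positive, and SMAD2 of 0.33 with 3 of 7 positive. MYC, which represses several inhibitor genes, had a change of 0.00.

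Among 15 genes of the mitogen signals that lead to CCND1, 0 passed, and the median was 0.01. At an unadjusted p under 0.05, 2 (13.3%, against 9.76% of all genes) were higher and 3 (20%, against 7.25%) were lower. FOSL1, an AP-1 subunit downstream of the ERK kinases, had a change of -0.59 (adjusted p = 0.0699), and all 6 of its probe sets were negative at an unadjusted p under 0.05. HRAS, a RAS gene of that cascade, had one of -0.23 (0.226). The receptor genes ERBB3 and EGFR had changes of 0.60 (adjusted p = 0.0525) and 0.40 (0.106), though 1 of the 3 probe sets of ERBB3 and 2 of the 8 of EGFR were negative. Both values come from probe sets whose suffix marks probes that can match other sequences. The other probe sets of ERBB3 had changes of 0.29 and -0.23, and those of EGFR ran from -0.11 to 0.37.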

How the data were processed

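The deposited table gives log2 expression for every probe set on each array. The authors made it with RMA and Partek, per the submitters' processing notes, which state no version or role. RMA normalizes the arrays to each other, which removes global shifts in mRNA content; the array medians over all deposited probe sets were 5.89 to 5.93. At dim probe sets, background left in the signal can compress a ratio. The sources used here give no scan date, filter or genome build. Precision is limited by the number of arrays.

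The 79 control probe sets of 49372 were left out, and 49293 were tested. Of these 44988 were paired with 1 gene by the platform annotation, 1832 with several and 2473 with none; genes were named from the 1-gene kind alone. Symbols were checked by Entrez identifier against RefSeq (GRCh38.p14). Knockdown was compared with mock by limma 3.58.1 in R 4.3.3 (lmFit, eBayes, two-sided), with Benjamini-Hochberg adjustment over 49293 probe sets and a threshold of 0.05. Residual degrees of freedom were 2, with 3.62 added by the prior. An exact permutation test of 2 against 2 arrays cannot go below p = 0.333 and was not used.

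The members and lists were chosen with earlier results of these data known. Named genes were all members, up to 4 genes per pathway list with the smallest p, and CCND2, CDKN2D, CDK2, CCNE1, CCNE2, RB1, MYC and MKI67. The helicase genes MCM2, MCM6 and MCM7 were added beside the MCM genes named by that rule. List genes with no 1-gene probe set were not analysed here, and 1 list, with the genes the rule names from it, is not reported here. Percentiles are ranks of a probe set's mean and only tell how far a signal lies above the dim end. Alternatives were centring, quantile normalization, a filter on dim probe sets, a variance trend, leaving out probe sets with shared probes, the replicate number as a block, leaving out each array, and averaging a gene's probe sets. The labels give the replicate numbers no shared culture or day, so the groups were compared unpaired.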

Additional observations from a re-analysis of the deposited data

How the results depend on the processing

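The probe sets past the test numbered 156 in the fit as reported. They numbered 671 with arrays centred on their medians, 297 after quantile normalization, 487 above the 25th percentile of mean level, 3209 with a variance trend and 23 without probe sets ending in _s_at or _x_at. With the replicate block 0 passed, and ARID1A, at the same log2 change of -1.78, was among the lost calls. Same-numbered arrays deviated in opposite directions (correlation -0.202), and with the numbers crossed, a pairing chosen after seeing the data, 0 passed as well. With any 1 array left out 0 passed, and the change of ARID1A ranged from -1.80 to -1.75; fewer degrees of freedom remain in all of these fits. Member probe sets past the test numbered 0 as reported, 3 with centred arrays, 2 with the filter on dim probe sets and 5 with the trend. Those lower at an unadjusted p under 0.05 numbered 3, or 8 with the trend and 0 to 2 with an array left out, and with the replicate block 2. Those higher were 3, or 2 without probe sets ending in _s_at or _x_at and 3 to 4 with an array left out. All probe sets of CDKN1C, CDK6, CDK4 and CDKN1A kept their sign under all alternatives that tested them. Of the values of single member probe sets, member genes, gene lists and whole arrays under these settings, 618 were counted as unchanged. For single probe sets and genes this means the same sign and the same side of the threshold. For counts and list medians it means only a shift within a set tolerance, and the median over all probe sets was always counted so. Of the rest, 84 list or array counts and medians moved, and 11 values gained a call, all for CDKN1C or CDK6. Another 15 values, all of single member probe sets, changed sign, and none of these passed under either setting. With centred arrays the change of CDKN2A (11753745_x_at) was 0.00246. After quantile normalization it was 0.00388 for CDKN2B (11726507_a_at), -0.00817 for CCND1 (11751330_a_at) and 0.00608 for CCND3 (11762304_a_at). With an array left out the change ranged from -0.0514 to 0.00497 for CDKN1B (11717091_s_at), from -0.0409 to 0.0419 and from -0.0302 to 0.0301 for CDKN2A (11718293_a_at and 11753745_x_at), and from -0.127 to 0.0970 for CDKN2B (11726507_a_at). It ranged from -0.183 to 0.0323, from -0.0286 to 0.123 and from -0.0210 to 0.0600 for CCND1 (11721256_a_at, 11721257_at and 11751330_a_at), and from -0.109 to 0.0767 for CCND3 (11762304_a_at). The cause of the differing counts was not tested.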

Other observations

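The genes next to CDKN1C and CDK6 were read after the values of these members had been seen, by the 3 nearest measured protein-coding genes on each side in RefSeq (GRCh38.p14), without a test of the group. CDKN1C lies in an imprinted cluster. The gene next to it on one side, SLC67A1, which encodes a membrane transporter, had a log2 change of 0.38 (SE 0.0716, limma adjusted p = 0.110). PHLDA2, an imprinted gene that restrains placental growth and is the next one on that side, had a change of -0.16 (adjusted p = 0.348). The potassium channel gene KCNQ1, the nearest on the other side, had one of 0.05, and TSSC4 one of -0.17. None of the 6 neighbours of CDKN1C passed the test, and their changes had both signs.

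Beside CDK6, the nearest gene on one side was SAMD9, a growth-restraining factor induced by interferon, with a change of -0.44 (SE 0.0899, limma adjusted p = 0.118). Its paralogue SAMD9L, the next one, had a change of 0.09 (adjusted p = 0.609). RBM48, on the other side of CDK6, had one of -0.04. None of the 6 neighbours of CDK6 passed the test.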
